A study of Mus musculus with 18 samples.

Results

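The RNA interference and microRNA machinery was followed as 9 genes, namely *Drosha*, *Dgcr8*, *Xpo5*, *Dicer1*, *Tarbp2*, *Ago2*, *Tnrc6a*, *Tnrc6b* and *Tnrc6c*. The genes were chosen by name, all 9 were among the 18659 genes of the deposited table, and all 9 passed the filter on low values. RNA was sequenced from E14 cells, a male mouse embryonic stem cell (mESC) line, which all groups share and which was grown in serum with LIF and treated for 24 h. Scrambled siRNA (scr) and luciferase siRNA, listed in the methods as an enzymatically derived siRNA, were the control siRNAs. A library of untreated cells had no siRNA. Knockdowns targeted *Stag1*, which encodes a regulatory subunit of cohesin, with 4 reagents. SP is a commercial SmartPool of siRNAs, 3p a pool to the 3′ end of the transcript, 5p a single duplex to its 5′ end and SATS an enzymatically prepared siRNA to the 5′ UTR of transcripts that start upstream of the gene. The siRNAs of the 3p pool are among those named for SP, so that these reagents share sequences. SATS and luciferase are of the enzymatic kind, and scr is not listed as such. In SATS against scr the kind of reagent and the target therefore cannot be told apart. Set 1 held 1 scr library and 3 SP libraries (1a, 1b and 1c), sets 2 and 3 held 1 library each of scr, SP, 3p, 5p and SATS, joined by untreated cells in set 2 and by luciferase in set 3.

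MicroRNAs are cut from long nuclear transcripts by the Microprocessor, in which the RNase III enzyme DROSHA works with the RNA-binding protein DGCR8. Exportin-5, encoded by *Xpo5*, carries the resulting hairpin out of the nucleus, where DICER1 and its partner TARBP2 trim it to a duplex. One strand is loaded into an Argonaute protein, of which AGO2 can slice its target, and the GW182 proteins encoded by *Tnrc6a*, *Tnrc6b* and *Tnrc6c* recruit deadenylases and decapping factors to the bound mRNA. Synthetic siRNAs enter the pathway downstream of the Microprocessor and use AGO2 to cut their target, so the reagents of this study act through part of this machinery. mESCs without *Dgcr8* or *Dicer1* survive but fail to silence the self-renewal programme properly during differentiation.

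The annotation of GRCm38 places a microRNA inside the coding sequence of the machinery itself. *Mir1306* lies in an exon of *Dgcr8* on chromosome 16, minus strand, from 18284239 to 18284317, within the coding sequence. The Microprocessor is known to cut hairpins in *Dgcr8* mRNA, which lowers that mRNA. Hairpins of miR-3618 in *Dgcr8* and of miR-5113 in *Tnrc6b* also lie in exons, but not within coding sequence, and are not shown. The mature sequences of miR-1306 from RefSeq (GRCm38.p6) are shown because they are part of a member's coding sequence. They are written 5′ to 3′ with the seed, bases 2 to 8, in capitals. The let-7a sequence is shown with them because LIN28A, described further on, blocks the maturation of let-7.
mmu-miR-1306-5p: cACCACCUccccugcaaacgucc
mmu-miR-1306-3p: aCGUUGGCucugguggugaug
mmu-let-7a-5p: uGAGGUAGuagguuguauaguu
The 3 seeds differ from each other. The libraries were not made from small RNAs, so none of these microRNAs was measured.

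*Stag1*, the target, stood at 17.3% to 23.5% of scr of the same set in the SP, 3p and 5p libraries of sets 2 and 3, at 50.5% and 49.7% in the SATS libraries and at 25.4% to 32.8% in the SP libraries of set 1. Untreated cells held 86.3% and luciferase 104% of it. Reads on genes numbered 9023224 to 14040830 per library in set 1 and 32137666 to 45660840 in the other 12 libraries, and a member was read 93 to 1488 times per library in set 1 and 1806 to 14553 times in sets 2 and 3. *Rn45s*, the rRNA precursor, took 69.2% to 79.1% of reads in set 1 and 14.7% to 23.9% elsewhere. All 7 embryonic stem cell markers were high, with median values of at least 2883. Of 5 fibroblast markers, 4 had a median over 50 in sets 2 and 3, and their summed value ran from 2590 to 5686 in set 2 and from 339 to 547 in set 3, highest in untreated cells. Of 5 primitive endoderm markers none had a median over 50 there.

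The level of the machinery per kb of exon in the 12 libraries of sets 2 and 3 put the nuclear enzyme first and the GW182 genes last. *Drosha* stood at 681 ± 38.9 normalized values per kb (SD, n = 12), followed by *Xpo5* at 421 ± 30.8 and *Ago2* at 338 ± 37.9, and each of these was above the next in all 12 libraries. *Dgcr8* (209 ± 19.3), *Tarbp2* (206 ± 9.08), *Dicer1* (194 ± 22.3) and *Tnrc6a* (181 ± 23.4) were close to each other. *Dgcr8* exceeded *Tarbp2* in 6 of 12 libraries, *Tarbp2* exceeded *Dicer1* in 9 and *Dicer1* exceeded *Tnrc6a* in 8, so the order of these neighbours lies within the spread. *Tnrc6a* was above *Tnrc6c* (112 ± 9.72) in all 12, and *Tnrc6c* was above *Tnrc6b* (90.8 ± 14.3) in 11. Exon lengths are those of all annotated transcripts joined, 4549 bases for *Tarbp2* and 23677 for *Tnrc6b*, so genes with long alternative exons appear lower per kb than a single transcript would.

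**Figure D1:**
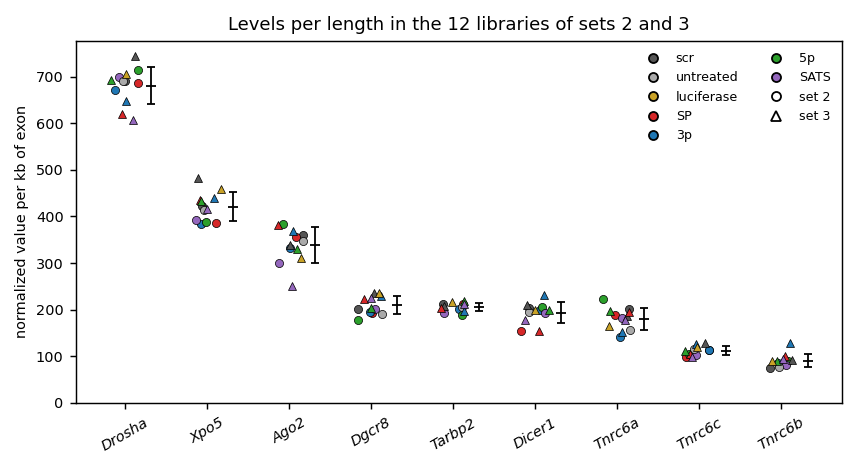
Normalized value per kb of joined exons (linear axis from 0) for the 9 genes in the 12 libraries of sets 2 and 3. Points are libraries, coloured by group and shaped by set, and bars give the mean and SD. *Drosha* lies above *Xpo5* in all 12 libraries, and *Dgcr8*, *Tarbp2*, *Dicer1* and *Tnrc6a* overlap.

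Each knockdown was set against scr, and against untreated cells and luciferase together, in sets 2 and 3, and SP also against scr over 3 sets. Without regard to the set number, limma with Benjamini-Hochberg adjustment called 0 of 9 members in each of the 10 comparisons, where 0%, 0.00599% or 0.0120% of all genes were called. Of the 90 values, 9 had an unadjusted p under 0.05 in limma and 6 in edgeR, which also called none. Over all genes limma gave such a p to 84 of 15970 for SP over 3 sets. In sets 2 and 3 it did so for 279 to 791 of 16684 per comparison. Samples of the same set deviated together, so the set number was also fitted as a replicate block, and each blocked call is given where it differs. With the block, 1 of 9 members was called for SP against scr (*Dicer1*, lower) where 0.743% of all 16684 genes were called, and 1 of 9 for 5p against untreated and luciferase (*Tnrc6a*, higher) where 3.25% were. No member was called for 3p (0.288% of genes), 5p (2.39%) or SATS (2.58%) against scr, nor for SP (0.605%), 3p (0.312%) or SATS (5.20%) against untreated and luciferase, nor for all knockdowns against all controls (2.89%), nor for SP over 3 sets (0%). Of the 90 blocked values, 19 had an unadjusted p under 0.05 in limma and 18 in edgeR. With the block limma gave such a p to 935 of 15970 genes for SP over 3 sets. In sets 2 and 3 it did so for 1691 to 3463 of 16684 genes per comparison. All 90 blocked log2 fold changes lay between −0.43 and 0.38, so no member changed 2-fold on average in any comparison. A p-value here measures the spread between these libraries. The paper calls its replicates independent but does not state separate cultures. In bulk RNA, fewer cells of a kind and less RNA per cell cannot be told apart.

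**Figure D2:**
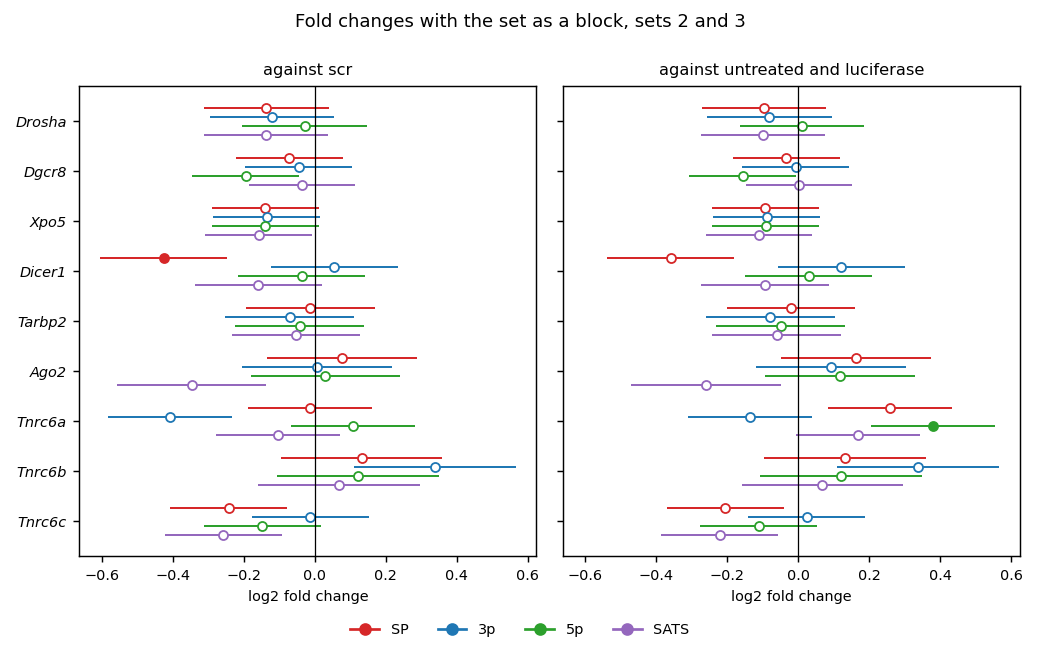
Log2 fold changes on the log2(value + 1) scale with their 95% confidence intervals, from limma with the set as a block, for each knockdown against scr (left) and against untreated and luciferase (right). Filled points passed an adjusted p of 0.05, namely *Dicer1* in SP against scr and *Tnrc6a* in 5p against untreated and luciferase.

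*Drosha* (chromosome 15, 12824815 to 12935291, plus strand) encodes the nuclear RNase III. In set 2 its value was 4102 in scr, 4093 in untreated cells, 4078 in SP, 3985 in 3p, 4234 in 5p and 4145 in SATS. In set 3 it was 4412 in scr, 4190 in luciferase, 3673 in SP, 3844 in 3p, 4106 in 5p and 3607 in SATS. All 4 knockdowns of set 3 lay below both controls, with SATS lowest, whereas the knockdowns of set 2 lay on both sides of them. Its blocked log2 fold changes ranged from −0.14 to 0.01, with interval bounds from −0.31 to 0.18.

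*Dgcr8* (chromosome 16, 18253948 to 18289246, minus strand) encodes the partner that binds the hairpin. Its values in set 2 were 1555 in scr, 1473 in untreated cells, 1488 in SP, 1494 in 3p, 1373 in 5p and 1550 in SATS. In set 3 they were 1811 in scr, 1813 in luciferase, 1712 in SP, 1769 in 3p, 1566 in 5p and 1728 in SATS. The 5p library was the lowest of its set in both sets, at 88.3% and 86.5% of scr. The blocked difference of 5p from scr was −0.19 on the log2 scale (SE 0.070) and did not pass limma (Benjamini-Hochberg adjusted p = 0.188). *Dgcr8* shares 825 exonic bases, 10.7% of its exons, with *Trmt2a* on the other strand, and strand-specific counting is stated for paired-end libraries only, so reads of these genes may be mixed.

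*Xpo5* (chromosome 17, 46202782 to 46243598, plus strand), the exporter of hairpins, held a similar level under all 4 reagents. In set 2 its value was 2894 in scr and 2844 in untreated cells, against 2641 in SP, 2634 in 3p, 2658 in 5p and 2697 in SATS. In set 3 it was 3305 in scr and 3149 in luciferase, against 2981 in SP, 3008 in 3p, 2966 in 5p and 2847 in SATS. The 8 knockdown libraries held 86.1% to 93.2% of scr, and in both sets all 4 knockdowns lay below both controls. That held for 1 of 9 members and for 2.27% of the 16684 genes, and the opposite order held for none of the members and for 1.72% of genes. Over all knockdowns the blocked log2 difference was −0.12 (SE 0.043), which did not pass limma (Benjamini-Hochberg adjusted p = 0.145). In set 1, however, *Xpo5* stood at 104% to 118% of scr in the 3 SP libraries.

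*Dicer1* (chromosome 12, 104687742 to 104751952, minus strand) encodes the cytoplasmic RNase III and was the member with the largest blocked decrease. In set 2 its value was 2578 in SP, against 3402 in scr, 3280 in untreated cells, 3342 in 3p, 3436 in 5p and 3237 in SATS. In set 3 it was 2582 in SP, against 3532 in scr, 3343 in luciferase, 3882 in 3p, 3321 in 5p and 2974 in SATS. SP was the lowest library of its set in both sets, at 75.8% and 73.1% of scr, while the other knockdowns spanned 84.2% to 110%. Its log2 fold change against scr was −0.43. The call rests on the block: *Dicer1* fell with it (SE 0.083, adjusted p = 0.0331 in limma with Benjamini-Hochberg adjustment, 0.0304 in edgeR) and did not pass without it (limma, adjusted p = 1.00). Leaving out any of scr 2, scr 3, SP 2 or SP 3 ended the blocked call, with adjusted p of 0.233, 0.377, 0.196 and 0.309 in limma. A fit without a library leaves its group with 1 library or none, and a lone library is assumed to vary as the other groups do. Against untreated and luciferase the difference was −0.36 (blocked adjusted p = 0.0789 in limma, and 0.0386 or 0.0384 without 3p 2 or 3p 3).

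The SP libraries of set 1 did not share this order. *Dicer1* stood at 3154 in scr of set 1 and at 3356, 3612 and 4003 in SP 1a, 1b and 1c, which is 106%, 115% and 127% of scr. All 3 SP libraries were thus above scr in set 1 and both were below it in sets 2 and 3, and over 3 sets the log2 fold change was −0.21 (SE 0.165 without the block, adjusted p = 1.00 in limma). Set 1 has a single scr library, and *Dicer1* was read 471 to 1123 times in its libraries. Altogether 5 of 9 members (*Dgcr8*, *Xpo5*, *Dicer1*, *Tarbp2* and *Tnrc6b*) lay on opposite sides of scr in set 1 and in the other sets, an order shared by 14.3% of the 11058 genes whose mean value reached 50. SP in sets 2 and 3 was also compared with the mean of the other 3 knockdowns, a comparison chosen after the values had been seen. With the block, *Dicer1* was lower in SP by 0.38 on the log2 scale (limma adjusted p = 0.0151), 1 of 9 members in a comparison that called 2.21% of genes. That call was lost without SP 2 (adjusted p = 0.174) or SP 3 (0.227).

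*Tarbp2* (chromosome 15, 102518192 to 102523676, plus strand), the partner of DICER1, had the smallest SD for its mean in sets 2 and 3. In sets 2 and 3 its values ran from 862 in 5p of set 2 to 996 in 5p of set 3, with scr at 964 and 944. The knockdowns held 89.4% to 105% of scr and overlapped the controls in both sets. Its blocked log2 fold changes ranged from −0.08 to −0.01, with interval bounds from −0.26 to 0.17. In set 1 scr stood at 723 and the SP libraries at 945, 923 and 749, from 93 to 287 reads.

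*Ago2* (chromosome 15, 73095844 to 73184935, minus strand) encodes the Argonaute that slices the mRNA an siRNA pairs with. In set 2 its value was 4207 in SATS, against 5047 in scr, 4879 in untreated cells, 4982 in SP, 4666 in 3p and 5399 in 5p. In set 3 it was 3521 in SATS, against 4752 in scr, 4359 in luciferase, 5349 in SP, 5187 in 3p and 4632 in 5p. SATS was the lowest library in both sets, at 83.3% and 74.1% of scr, and SP, 3p and 5p lay within or above the controls apart from 3p of set 2. The log2 difference of SATS from scr was −0.35 (blocked SE 0.098) and did not pass limma (Benjamini-Hochberg adjusted p = 0.0756 with the block, 1.00 without), although the blocked fit passed without 3p 2 (0.0390) or 3p 3 (0.0396). It also passed without SATS 2 (0.0347), where SATS was 1 library, that at 74.1% of scr, and the spread came from the other groups. Against the mean of SP, 3p and 5p, a comparison chosen after the values had been seen, it was −0.39 with an interval from −0.56 to −0.21. There *Ago2* fell with the block (limma adjusted p = 0.0112, edgeR 0.0122), 1 of 9 members where 9.19% of genes were called, and lost the call without SATS 3 (adjusted p = 0.364). SATS is also the reagent that left the most *Stag1*, and it targets only transcripts that start upstream of the gene. A link between the levels of *Ago2* and *Stag1* was not tested. In set 1 *Ago2* stood at 4721 in scr and at 3624, 4203 and 4848 in the SP libraries.

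**Figure D3:**
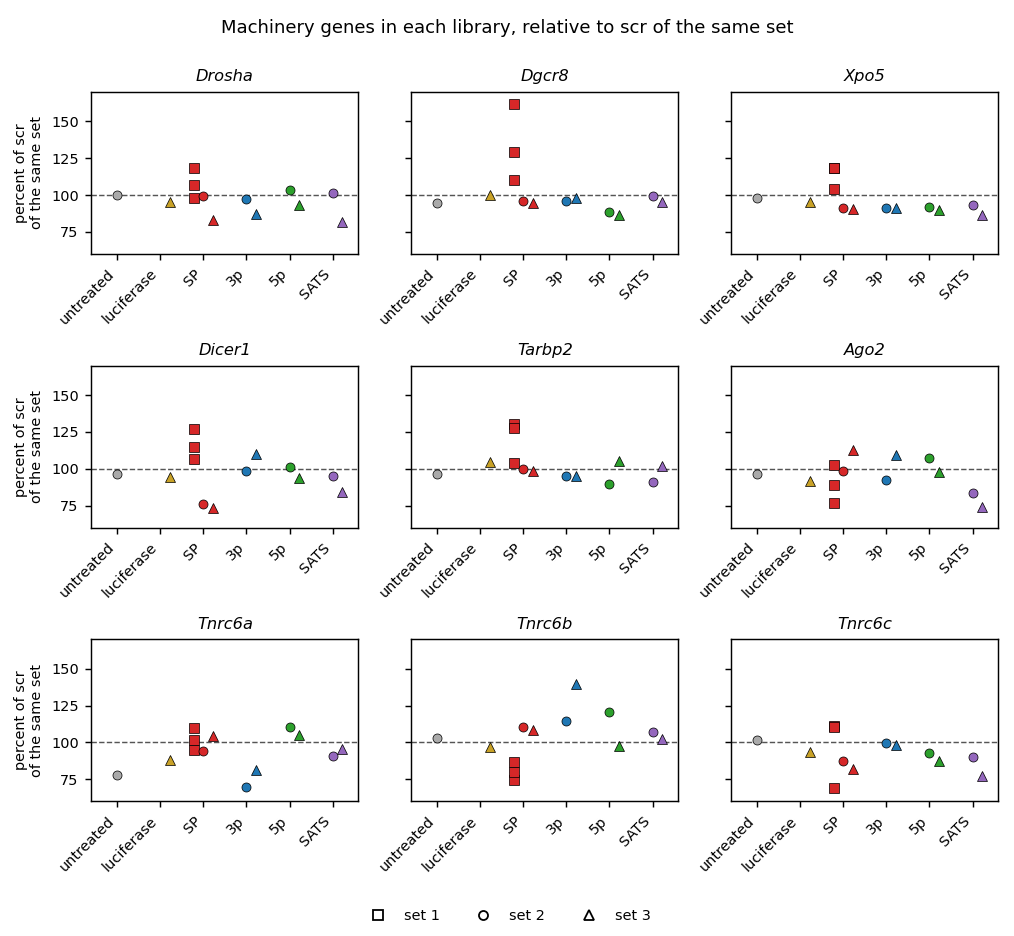
Value of each gene as a percentage of scr in the same set (dashed line at 100), for the other 13 libraries. Squares, circles and triangles are sets 1, 2 and 3. *Dicer1* is at 75.8% and 73.1% in SP of sets 2 and 3 and above 100% in SP of set 1, *Ago2* is lowest in SATS in sets 2 and 3, and *Xpo5* is below 100% in all 8 knockdowns of those sets.

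The GW182 genes, whose proteins link Argonaute to mRNA decay, did not move as a family. *Tnrc6a* (chromosome 7, 123123885 to 123195296, plus strand) stood at 1784 in 3p of set 2, against 2557 in scr, 1985 in untreated cells, 2404 in SP, 2825 in 5p and 2320 in SATS. In set 3 it stood at 1937 in 3p, against 2379 in scr, 2099 in luciferase, 2484 in SP, 2502 in 5p and 2271 in SATS. In both sets 3p was the lowest and 5p the highest library, and untreated cells or luciferase were the second lowest. The controls themselves were thus apart, with 77.6% of scr in untreated cells and 88.2% in luciferase.

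The result for *Tnrc6a* therefore turned on the control used. Against untreated and luciferase it rose in 5p with the block, by 0.38 on the log2 scale (SE 0.081, limma adjusted p = 0.0232, edgeR 0.0278), and against scr the difference was 0.11 (limma adjusted p = 0.566). Without the block the former did not pass (adjusted p = 1.00), and without 5p 2, untreated 2, 5p 3 or luciferase 3 the blocked adjusted p was 0.169, 0.188, 0.0558 and 0.0536. Untreated cells of set 2 also had the highest fibroblast marker sum (5686, against 2855 in scr of that set), whereas luciferase (379) was below scr (547) in set 3, and the part of these markers in the result was not tested. For 3p the difference was −0.41 from scr (SE 0.081, blocked limma adjusted p = 0.0577, and 0.0435 or 0.0425 without 5p 2 or 5p 3) and −0.14 from untreated and luciferase. In comparisons with the other 3 knockdowns, chosen after the values had been seen, *Tnrc6a* was lower in 3p by 0.40 (limma with the block, adjusted p = 0.0249, 1 of 9 members where 0.300% of genes were called) and higher in 5p by 0.28 (adjusted p = 0.0221, 1 of 9 where 6.10% were). The former was lost without scr 2, 3p 2, scr 3, SP 3 or 3p 3 (adjusted p 0.0762, 0.194, 0.0780, 0.0756 and 0.10) and the latter without SP 2, 5p 2 or 5p 3 (0.0505, 0.263 and 0.0940). None of these 4 comparisons passed for a member without the block, where 0% or 0.00599% of genes were called, in limma or in edgeR.

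*Tnrc6b* (chromosome 15, 80711313 to 80941085, plus strand) was highest in 3p in set 3, at 3064 against 2190 in scr and 2128 in luciferase, with SP at 2382, 5p at 2142 and SATS at 2248. In set 2 it was 2031 in 3p, 1777 in scr, 1830 in untreated cells, 1963 in SP, 2149 in 5p and 1902 in SATS. All 4 knockdowns of set 2 lay above both controls, but 5p of set 3 lay below scr, so the groups overlapped. Over all knockdowns the blocked difference was 0.16 (SE 0.065, limma adjusted p = 0.182), and without 3p 2 it passed (adjusted p = 0.0444). In 3p alone it was 0.34 against scr (adjusted p = 0.244). Without 3p 2 it was 0.53 (0.0482), but 3p was then the single library of set 3, at 140% of scr, with the spread taken from the other groups. In set 1 the 3 SP libraries were below scr, at 74.6%, 80.0% and 86.8% of it.

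*Tnrc6c* (chromosome 11, 117654289 to 117763439, plus strand) tended the other way, with values of 1460 in scr, 1482 in untreated cells, 1273 in SP, 1457 in 3p, 1360 in 5p and 1316 in SATS of set 2. In set 3 they were 1645 in scr, 1539 in luciferase, 1346 in SP, 1618 in 3p, 1437 in 5p and 1275 in SATS. SP and SATS were the lowest libraries in both sets, and only 3p of set 3 exceeded a control, luciferase, of its own set. The blocked difference over all knockdowns was −0.15 (SE 0.047, limma adjusted p = 0.105) and that of SATS from scr −0.26 (adjusted p = 0.0868). In set 1 *Tnrc6c* stood at 2404 in scr and at 2670, 2656 and 1667 in SP 1a, 1b and 1c, so SP 1c was apart from the other SP libraries.

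Beyond the 9 members, 55 genes of the pathway were examined by role, and all were tested. Without the block none was called by limma in any comparison. With it 8 of 55 passed in at least 1 of the 10 comparisons with controls, in 3p, 5p or SATS. The share of all genes that did so was not counted, so 8 of 55 cannot be set against the share of a single comparison. In 5p 0 rose and 3 fell against scr, where 2.39% of all genes were called, and 1 rose and 3 fell against untreated and luciferase, where 3.25% were. In SATS 2 rose and 1 fell against scr (2.58% of all genes), and 3 rose and 2 fell against the other controls (5.20%). In 3p 1 rose against scr (0.288%). The median log2 fold change of the 55 was −0.02 in 5p against scr, where that of all genes was 0.01, and −0.04 in SATS against scr, where that of all genes was −0.0044.

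The largest changes were in 5p. *Tsnax*, whose protein forms the C3PO endonuclease that helps to activate RISC by removing the passenger strand, stood at 408 in 5p against 638 in scr and 631 in untreated cells of set 2, and at 289 against 650 in scr and 681 in luciferase of set 3. The other knockdowns of these sets held 99.6% to 116% of scr. With the block it fell by 0.91 on the log2 scale against scr and by 0.93 against untreated and luciferase (limma adjusted p 0.00063 and 0.00060). The latter call held in all 12 fits that left out 1 library, and the former was lost without scr 3 (adjusted p = 0.0615).

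*Lin28a*, which encodes the let-7 binding protein of stem cells and has the highest mean value (not per length) of the 8 genes of small RNA tailing and turnover, stood at 5997 in 5p, 8704 in scr and 8566 in untreated cells of set 2. In set 3 it stood at 5629 in 5p, 9992 in scr and 9163 in luciferase. It fell by 0.68 against scr and by 0.61 against the other controls (limma with the block, adjusted p 0.0011 and 0.0021), and each call was lost in 1 of 12 fits, without scr 3 (0.0615) and without 5p 3 (0.0525). *Trim71*, a let-7 target that binds AGO2, was lower in 5p (86.6% and 70.0% of scr) and in SATS (79.8% and 64.2%). It fell in SATS by 0.48 against scr and in 5p by 0.36 (limma adjusted p 0.0194 and 0.0436 with the block), calls that were kept in 9 and in 6 of 12 such fits. In set 1, where SP was the knockdown, *Lin28a* was at 120% to 155% and *Trim71* at 107% to 127% of scr.

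**Figure D4:**
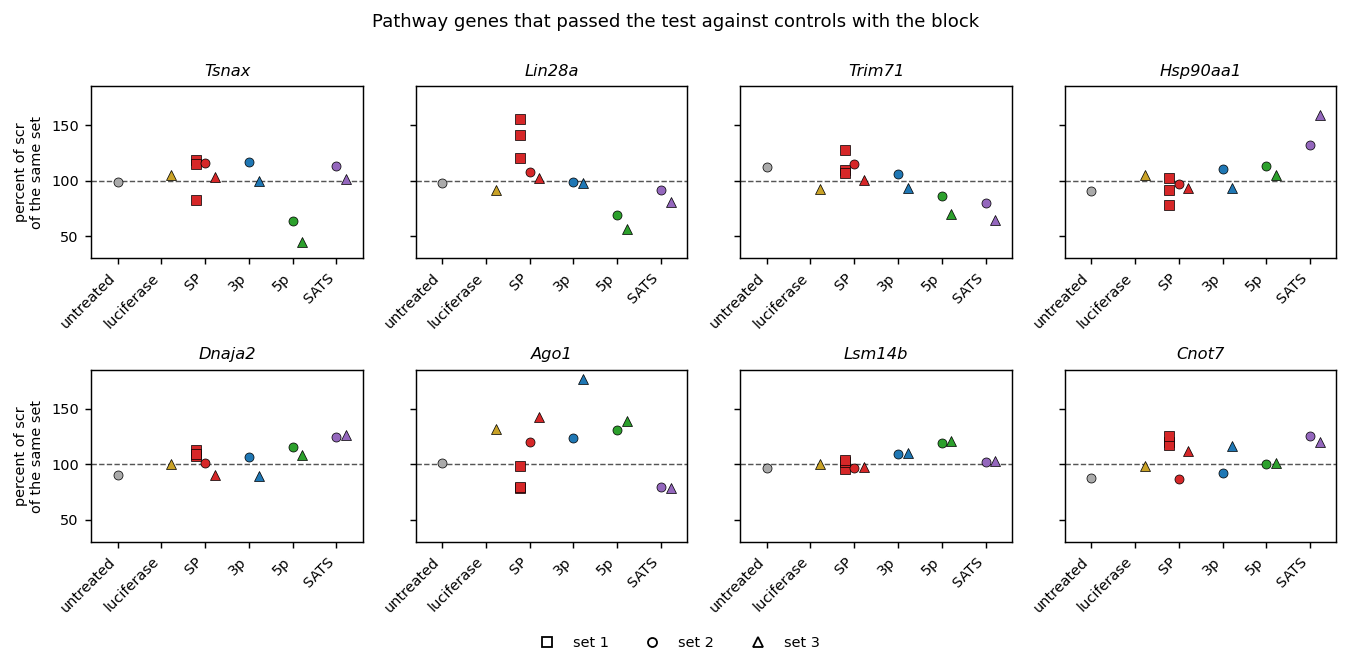
Values of the 8 pathway genes that passed limma with the block in a comparison with controls, as a percentage of scr in the same set, drawn as for the members. *Tsnax* and *Lin28a* are lowest in 5p in both sets, *Trim71* is lowest in SATS, and *Hsp90aa1* and *Dnaja2* are highest in SATS among the knockdowns of sets 2 and 3.

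In SATS 2 genes of the chaperone machinery that helps to load Argonaute were higher. *Hsp90aa1*, a cytosolic HSP90, stood at 45420 in SATS against 34357 in scr of set 2 and at 50105 against 31387 in set 3, and rose by 0.54 (limma adjusted p = 0.0287 with the block). *Dnaja2*, a co-chaperone, stood at 125% and 126% of scr and rose by 0.33 (adjusted p = 0.0462). *Hsp90ab1*, with the highest mean value of the 13 loading partners, stood at 105% and 85.3% and did not pass. Leaving out 1 library ended the call of *Hsp90aa1* in 3 of 12 fits and that of *Dnaja2* in 7, with adjusted p up to 0.399 and 0.446 in limma.

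*Ago1*, a paralogue of *Ago2*, had the highest mean value of the other 3 Argonaute genes. In sets 2 and 3 it was lower in SATS (79.7% and 79.1% of scr) and higher in 3p (123% and 177%). The SP (120% and 142%) and 5p (131% and 139%) libraries were above scr as well, though neither passed against it. In set 1 the SP libraries stood at 78.4%, 79.5% and 98.8% of scr. *Ago1* rose by 0.56 in 3p against scr (limma adjusted p = 0.0499 with the block) and fell by 0.54 in SATS against untreated and luciferase (0.0159). Its controls differed as well, with 101% of scr in untreated cells and 132% in luciferase, and the calls were kept in 6 and 9 of 12 fits that left out 1 library. *Lsm14b*, a P-body protein, rose by 0.29 in 5p, and *Cnot7*, a deadenylase, by 0.40 in SATS, both against untreated and luciferase. These calls (limma adjusted p 0.0404 and 0.0438 with the block) were kept in 4 and 6 of 12 fits. Against scr both genes were also higher, by 0.27 and 0.30, but did not pass. The genes with the highest mean value in the remaining roles, *Ddx5* among the Microprocessor cofactors, *Pabpc1* among the deadenylation genes and *Ddx6* among the decapping genes, held 82.3% to 110%, 88.1% to 103% and 92.4% to 112% of scr in the knockdowns of sets 2 and 3.

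The comparisons of each knockdown with the other 3, chosen after the values had been seen, use the same libraries. With the block they called 12 of the 55 genes, of which 5 had not passed against controls. The share of all genes called in any of them was not counted, so 12 of 55 cannot be set against the share of a single comparison. In SP 3 were higher, where 2.21% of all genes were called, namely *Trim71* by 0.39, *Lin28a* by 0.38 and *Tsnax* by 0.36 on the log2 scale (limma adjusted p 0.0145, 0.0161 and 0.0480). These are the genes that were low in 5p or SATS, which belong to the mean that SP was set against. In 5p 2 were higher and 3 lower (6.10% of all genes), with *Dcp1a*, a decapping cofactor, at 0.30 and *Fkbp4*, a co-chaperone of HSP90, at −0.27 beside *Tsnax*, *Lin28a* and *Lsm14b* (limma adjusted p 0.0085 for *Dcp1a* and 0.0356 for *Fkbp4*). In SATS 5 were higher and 3 lower (9.19%), and those not yet named were *Ptges3*, the HSP90 co-chaperone p23, at 0.26, *Tent2*, a poly(A) polymerase, at 0.29 and *Mov10*, a helicase bound to Argonaute, at −0.26 (limma adjusted p 0.0206, 0.0435 and 0.0484). In 3p 0 of 55 were called, where 0.300% of all genes were. With the block 7 of the 55 had an unadjusted p under 0.05 in limma, as had 1469 of all 16684 genes.

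The genes whose values followed each member most closely over the 16 libraries, centred within set, were found among 11058 genes by Pearson's r. *Dgcr8* had the closest companions, *Fam46b* (0.97) and *Nes* (0.96). *Drosha* was nearest to *Tle4* (0.90) and *Nol9* (0.89), *Xpo5* to *Urb2* (0.92) and *Pwp2* (0.90), and *Dicer1* to *Mgat4a* (0.89) and *Cdc40* (0.83). *Ago2* was nearest to *Htt* (0.92) and *Stk35* (0.91), *Tarbp2* to *Oma1* (0.92) and *Mrps7* (0.91), and *Tnrc6c* to *Pgam1* (0.93) and *Ciart* (0.90). *Tnrc6a* had *Scaf8* (0.86) and *Yap1* (0.80), and *Tnrc6b* had *Panct2* (0.81) and *Ric1* (0.79). Between members, *Xpo5* went with *Drosha* (0.74) and *Dgcr8* (0.72), and *Tarbp2* went against *Tnrc6b* (−0.72). These values describe 16 libraries that share sets, and the shallow set 1 holds the widest deviations of several members.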

How the data were processed

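Deposited values of 16 rRNA-depleted RNA-seq libraries were analysed, and 2 samples of cells in 2i were not analysed here. The authors used hisat2 (mm10) and featureCounts, and deposited a normalized signal, which is the reads of a gene over a DESeq2 1.14.1 size factor. Values were whole multiples of 1 read (100% of values, tolerance 0.001), so reads were recovered. A second deposited table, of set 1, was not used because the first holds its libraries. Log2(value + 1) was fitted with limma 3.58.1 (R 4.3.3, eBayes with trend, summed value of at least 10), over 12 libraries in 7 groups for sets 2 and 3 (16684 genes) and over 3 sets for SP (15970 genes, SP of set 1 averaged), at a Benjamini-Hochberg adjusted p under 0.05. Such fold changes understate changes of low genes. The labels number the sets. Same-set deviations correlated at 0.77 to 0.82 (SP) and 0.81 to 0.93 (sets 2 and 3), so the numbers were taken to pair samples and each fit was repeated with the set as a block. edgeR 4.0.16 on recovered reads (quasi-likelihood), other scalings, pseudocounts and filters, and leaving out libraries were alternatives. In simulated data for SP against scr (16707 genes), limma called 2% of the 50 genes changed 1.5-fold without the block and 88% with it. Of 16507 unchanged genes it called 0 without the block and 14 with it. These shares apply to simulated sets that differed from each other and to the spread chosen for the simulation. Whether the block suits the real libraries was not tested by them.

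Named were the members and the pathway genes past the threshold against controls, with or without the block (at most 10). Pathway genes past it only against the other knockdowns, in comparisons chosen after the values had been seen, were named beyond that limit. Also named were the gene with the highest mean value in each role and the 2 genes most like each member. Members and lists were chosen with earlier results of these data known. All 55 pathway genes matched, 4 by older symbols. Coordinates and exon lengths are from GENCODE for GRCm38, the assembly of mm10. Intervals cover the spread of these libraries only, and reads made by PCR are not independent molecules. Which libraries were paired-end, and how 1a, 1b and 1c differ, is not given in the sources used here.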

Additional observations from a re-analysis of the deposited data

Results flagged for a closer look

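*Tarbp2* in SP 1c was far from the other 4 SP libraries, with a gap to its neighbour of 0.820 of the group's range (critical value 0.71 for 5 libraries). It was the single such case among 9 members, and chance gives about 1 in 20 for each member tested. That rate takes the SP libraries as alike, whereas 1a, 1b and 1c come from the shallow set 1. *Tarbp2* in SP 1c had 93 reads and stood at 104% of scr of its own set.

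For 5 members the SP libraries of set 1 and those of sets 2 and 3 lay on opposite sides of scr, and this difference was not tested. As a percentage of scr in SP 1a, 1b and 1c, then SP 2 and SP 3, *Dgcr8* stood at 110, 129 and 162, then 95.7 and 94.5. *Xpo5* stood at 104, 118 and 118, then 91.3 and 90.2. *Dicer1* stood at 106, 115 and 127, then 75.8 and 73.1. *Tarbp2* stood at 131, 128 and 104, then 99.7 and 98.5. *Tnrc6b* stood at 74.6, 80.0 and 86.8, then 110 and 109. For *Tarbp2* the departures in sets 2 and 3 are under 2%, and all 5 rest on 1 scr library in set 1.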

How the results depend on the processing

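Without the replicate block, no member was called under any pseudocount, filter, scaling, test or omission tried. With the replicate block, limma, edgeR, TMM scaling and scaling by total reads without *Rn45s* each called 1 member for SP against scr, for 5p against untreated and luciferase, and for each of SP, 3p, 5p and SATS against the other 3 knockdowns, and 0 in the remaining comparisons. Leaving out 1 library in the blocked fit moved the number of members called between 0 and 1 in all comparisons but those of 5p with scr and of SATS with untreated and luciferase, where it was 0 throughout. SP over 3 sets called 0 members with the block and 1, *Dicer1*, without set 1 (log2 fold change −0.43, limma adjusted p = 0.00031, from 4 libraries). That fit drops the set in which *Dicer1* went the other way, and its p leans largely on the spread of other genes. The blocked limma fit of 12 libraries gave the same fold change an adjusted p of 0.0331. Over all knockdowns against all controls, 2 members changed sign when a library was left out, though neither passed the test. *Ago2* ranged from −0.057 to 0.017 without the block and from −0.049 to 0.018 with it, and *Tnrc6a* from −0.027 to 0.095 and from −0.031 to 0.093, negative without untreated cells of set 2. The number of all genes called rose with the block, from 1 to 124 for SP, 1 to 48 for 3p, 2 to 398 for 5p and 0 to 431 for SATS against scr in limma. In edgeR with the block SP over 3 sets called 66 genes, against 0 in limma. The cause of these changes was not tested. Depth limits set 1 most, where a member had as few as 93 reads.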
